A study of Mus musculus with 12 samples.

Results

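Long intergenic noncoding RNAs (lincRNAs) were described in cultured C57BL/6 mouse macrophages taken from the peritoneal cavity. Members were chosen by measured level: the deposited count table gave them the biotype lincRNA, and their mean CPM (count over the library's summed count, scaled to 1e+06) was at least 1 in any of the 4 groups. That rule found 178 members among 2998 lincRNA genes and 43346 genes in all. Of the other 2820 lincRNA genes, 1853 had 0 counts in every library. The cells carried the normal Cd36 gene (WT) or came from mice without CD36 (CD36 KO), a scavenger receptor for oxidized lipoproteins. They were kept in RPMI1640 with 10% FBS and then held for 8 h in medium alone (control) or with 20 µg/ml oxidized low-density lipoprotein (oxLDL), the particle that turns macrophages into foam cells. The 12 libraries, 3 a group, are named here by their group and replicate number. The labels give no age, no source of the control mice, no cell purification and no account of which Cd36 exons were removed. Nor do they say whether replicates were separate animals or cultures, so p-values here reflect the spread of these libraries alone, which may be technical.

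LincRNAs are transcribed by RNA polymerase II from their own promoters between protein-coding genes, and most are capped, spliced and polyadenylated like mRNAs. Many stay in the nucleus, some scaffold nuclear bodies, some act on the transcription of genes beside them, and some are the precursors from which microRNAs (miRNAs) are cut. In macrophages, the lincRNA beside Ptgs2 (lincRNA-Cox2, Ptgs2os2) and the precursor of miR-155 (Mir155hg) are known as genes switched on by inflammatory signals.

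The libraries held 35257762 to 65135955 counts. Across genes, libraries of one group correlated at r = 0.988 to 0.995, except WT oxLDL replicate 1, which reached 0.952 and 0.953 with its group and had the lowest TMM scaling factor (0.729, others 0.838 to 1.18). Counts of members called in each comparison, and the changes of some members, are also given without it. Other values that rest on that library, such as those of neighbouring genes, include it. Cd36 itself averaged 5362 TMM-scaled CPM in WT control, 3100 with oxLDL in WT, 481 in CD36 KO control and 199 with oxLDL in CD36 KO. All 10 macrophage markers were detected, and their summed level was 15845 CPM in WT control and 15863 CPM in CD36 KO control. Most of that sum was Lyz2, at 11220 and 12351 CPM, and 2 of the 10 passed as higher and 2 as lower in CD36 KO control. Under oxLDL the sum was 25007 CPM in WT (19866 to 34799) and 17378 CPM in CD36 KO (15632 to 19822), where 1 passed as higher and 4 as lower. Markers of other cells moved with genotype: the summed level of 10 B cell markers was 105 ± 10.3 CPM (SD, n = 3) in WT control and 252 ± 89.4 in CD36 KO control. Within it, Ighm stood at 22.4 and 154 CPM, while Cd22 did not rise, at 77.1 and 72.5. The summed level of 10 mesothelial and fibroblast markers was 1002 CPM (771 to 1300) in WT control and 2525 CPM (1942 to 3375) in CD36 KO control. Most of that sum was Col1a1 (312 and 935 CPM), Col1a2 (397 and 1006) and Col3a1 (147 and 324). Among the mesothelial members of that list, Msln stood at 0.260 and 0.347 CPM in the controls of WT and CD36 KO, Upk3b at 7.74 and 18.3, Wt1 at 13.5 and 24.5, and Lrrn4 at 8.82 and 23.3. Krt19 went the other way, at 0.966 and 0.465 CPM. The summed level of 8 neutrophil markers was also lower in CD36 KO control, at 57.3 against 90.3 CPM in WT control. Most of that sum was Csf3r, at 50.7 against 81.8 CPM. S100a9 (0.340 against 0.0309), Mpo (0.173 against 0.0477) and Elane (0.0473 against 0.0360) went the other way. The summed level of 4 eosinophil markers was 14.8 against 18.5 CPM. Most of it was Siglecf, at 14.5 against 17.1, while Prg2 (0.0315 against 0.0212) went the other way and Epx had 0 in all groups. The T cell and mast cell sums were higher.

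Membership did not depend on a sharp gap in level. The members just inside the limit were A430106G13Rik, Gm12708 and 9230114K14Rik, each at 1.02 CPM in its highest group, and just outside lay Gm17249 at 0.998 and 2310040G24Rik at 0.996. In their highest group, 5 members reached 100 CPM, 27 lay between 10 and 100, 25 between 5 and 10, and 121 between 1 and 5, with a median of 3.04 CPM. The minimum was met in all 4 groups by 81 members, in 3 groups by 17, in 2 by 46 and in only 1 by 34. All 178 also passed the filter on low counts and were tested. A member that met the minimum only through its highest group had to differ between groups, so counts over members are descriptions of this choice.

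The biotype came from an older annotation, and GENCODE M21, which covers the same mm10 assembly (GRCm38), holds 165 of the 178. It still types 118 as lincRNA, while 13 are processed transcripts, 13 share a bidirectional promoter, 12 are antisense RNAs and 3 are protein-coding. Exons of 32 members overlapped an exon of a protein-coding gene, 44 overlapped the body of one, and 29 started head to head within 1 kb of a coding start. Since the use of strand in counting is not given in the sources used here, reads of such pairs cannot be told apart. The members were spread over 20 chromosomes. Their counted length had a median of 2304.5 bases and ran from 132 to 20771, the longest being Neat1, and 30 had a single block of exons.

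The mature miRNAs cut from members that rose or fell with oxLDL show which regulators these host RNAs carry. They are printed 5′ to 3′ from RefSeq (GRCm38.p6) with the seed, bases 2 to 8, in capitals. Mir155hg on the plus strand holds miR-155 at chr16:84714143-84714202. The member 4833445I07Rik, named mmu-mir-191 in the table, holds miR-191 and miR-425 on the plus strand between chr9:108568325-108568850. A430106G13Rik holds miR-181b-1 at chr1:137966650-137966710 (plus strand), E130102H24Rik holds miR-101a at chr4:101346957-101347014 (minus strand) and 2900076A07Rik holds miR-1839 at chr7:81529919-81529940 (plus strand). H19 holds miR-675 at chr7:142577078-142577133 (minus strand), Meg3 holds miR-770 at chr12:109563710-109563765 (plus strand), and 6720427I07Rik holds let-7d, let-7f-1 and let-7a-1 at chr13:48536024-48538260 (minus strand).
mmu-miR-155-5p: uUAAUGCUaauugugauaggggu
mmu-miR-155-3p: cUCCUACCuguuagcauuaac
mmu-miR-191-5p: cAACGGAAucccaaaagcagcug
mmu-miR-425-5p: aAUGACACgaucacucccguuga
mmu-miR-181b-5p: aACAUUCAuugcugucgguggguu
mmu-miR-101a-3p: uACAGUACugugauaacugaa
mmu-miR-1839-5p: aAGGUAGAuagaacaggucuug
mmu-miR-675-5p: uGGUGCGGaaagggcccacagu
mmu-miR-675-3p: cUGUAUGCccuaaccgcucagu
mmu-miR-770-5p: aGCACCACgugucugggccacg
mmu-let-7d-5p: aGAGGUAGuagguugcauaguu
mmu-let-7f-5p: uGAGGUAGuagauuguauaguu
mmu-let-7a-5p: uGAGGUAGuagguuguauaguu
The 3 let-7 miRNAs of 6720427I07Rik share the seed GAGGUAG, and the other miRNAs printed have seeds of their own. In all, 15 members held an annotated miRNA on their strand, and these hosts carried 70 mature miRNAs.

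Promoters were printed for 5 members whose RNA moved in the same direction in both genotypes. Each is the 300 bases from 250 before to 50 after the RefSeq start (GRCm38.p6), read 5′ to 3′ along the gene's strand. Capitals mark matches to the motifs counted further on. Mir155hg lies at chr16:84712773-84713072 (plus strand), Ptgs2os2 at chr1:150164899-150165198 (minus), A930007I19Rik at chr19:29521938-29522237 (minus), 1110002J07Rik at chr10:66920335-66920634 (minus) and Mirt1 at chr19:53464747-53465046 (minus). The RefSeq start of Mir155hg falls inside the longer gene body that GENCODE M21 gives, chr16:84703167-84715245. That of A930007I19Rik lies 1172 bases from its M21 start.
Mir155hg promoter: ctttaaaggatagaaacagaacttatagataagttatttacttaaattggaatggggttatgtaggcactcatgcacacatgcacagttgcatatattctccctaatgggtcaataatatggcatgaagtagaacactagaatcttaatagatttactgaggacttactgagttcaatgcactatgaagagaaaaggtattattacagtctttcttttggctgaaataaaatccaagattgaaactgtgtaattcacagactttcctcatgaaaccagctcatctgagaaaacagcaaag
Ptgs2os2 promoter: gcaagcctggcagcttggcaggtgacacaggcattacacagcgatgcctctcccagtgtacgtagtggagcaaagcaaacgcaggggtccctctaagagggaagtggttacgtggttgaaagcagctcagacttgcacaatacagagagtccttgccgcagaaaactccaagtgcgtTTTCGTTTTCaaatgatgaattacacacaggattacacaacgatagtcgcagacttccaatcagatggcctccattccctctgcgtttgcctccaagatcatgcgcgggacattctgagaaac
A930007I19Rik promoter: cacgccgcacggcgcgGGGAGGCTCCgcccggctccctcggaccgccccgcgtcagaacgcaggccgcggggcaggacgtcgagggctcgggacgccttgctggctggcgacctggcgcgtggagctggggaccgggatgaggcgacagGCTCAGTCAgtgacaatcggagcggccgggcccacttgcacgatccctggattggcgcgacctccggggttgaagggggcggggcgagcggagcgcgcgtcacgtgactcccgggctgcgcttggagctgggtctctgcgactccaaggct
1110002J07Rik promoter: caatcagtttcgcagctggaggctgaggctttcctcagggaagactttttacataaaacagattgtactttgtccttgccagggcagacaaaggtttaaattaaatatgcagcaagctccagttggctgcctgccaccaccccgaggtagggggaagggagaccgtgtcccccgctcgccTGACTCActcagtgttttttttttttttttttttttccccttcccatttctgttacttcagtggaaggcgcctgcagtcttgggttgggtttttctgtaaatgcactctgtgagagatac
Mirt1 promoter: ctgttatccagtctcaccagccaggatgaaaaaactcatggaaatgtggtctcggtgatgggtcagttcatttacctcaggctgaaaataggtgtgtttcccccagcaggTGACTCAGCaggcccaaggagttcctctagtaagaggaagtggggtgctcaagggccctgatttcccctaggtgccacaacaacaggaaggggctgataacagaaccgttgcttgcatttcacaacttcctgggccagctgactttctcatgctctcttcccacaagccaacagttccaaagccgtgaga
Positions of the matches are counted from the start, with negative numbers before it. The match TTTCGTTTTC in Ptgs2os2 spans -73 to -64 and has the letters of the interferon-stimulated response element on the other strand. In A930007I19Rik, GGGAGGCTCC has the NF-kB letters at -234 to -225 and GCTCAGTCA the antioxidant response element letters at -101 to -93. The match TGACTCA of 1110002J07Rik, the AP-1 letters, spans -70 to -64, and in Mirt1 TGACTCAGC at -140 to -132 holds overlapping AP-1 and antioxidant letters. The Mir155hg window held no match to any motif searched. Its RefSeq start lies 9856 bases from its M21 start, so that window may not be its promoter.

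LincRNA genes as a class took a small share of the reads, and the share was lower with oxLDL in both genotypes. It was 0.391 ± 0.0125% of all counts in WT control (SD, n = 3; 0.377 to 0.399), 0.235 ± 0.0116% with oxLDL (0.222 to 0.244), and in CD36 KO cells 0.505 ± 0.108% without (0.436 to 0.629) and 0.299 ± 0.0706% with oxLDL (0.242 to 0.378). The oxLDL libraries lay below the control libraries of their genotype, without overlap. Neat1, the RNA around which nuclear paraspeckles assemble, made up 0.176% of the counts in WT control and 0.0557% in WT oxLDL. In CD36 KO cells it made up 0.282% without and 0.130% with oxLDL. The lincRNA genes other than Neat1, Gm42418 and Malat1 were also lower with oxLDL, at 0.111% and 0.0753% in WT control and oxLDL and 0.135% and 0.101% in CD36 KO.

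Per length, in the authors' RPKM over the 12 libraries, the most abundant members were Gm42418 at 362, Neat1 at 77.5, Gpr137b-ps at 60.9, AI662270 at 42.0, Mir142hg at 36.8 and Malat1 at 35.9 RPKM. Gm42418 (Yam1 in the table) lies at chr17:39846958-39848788 and is known to overlap ribosomal RNA sequence. Its libraries held 1175, 630 and 528 TMM-scaled CPM in WT control, 1679, 769 and 1026 with oxLDL in WT, 403, 518 and 368 in CD36 KO control and 343, 446 and 462 with oxLDL in CD36 KO. All 3 CD36 KO oxLDL libraries lay below all WT oxLDL libraries, and the log2 difference was -1.47 ± 0.33 (SE; adjusted p = 0.00870, edgeR's quasi-likelihood test, Benjamini-Hochberg). Without WT oxLDL replicate 1 it was -1.12 (adjusted p = 0.00746). Gpr137b-ps, a pseudogene of Gpr137b, stayed between 147 and 215 CPM in all libraries and passed in no comparison.

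OxLDL lowered more lincRNAs than it raised. In WT cells, 97 of 178 members passed an adjusted p of 0.05 (edgeR's quasi-likelihood test over all genes, Benjamini-Hochberg), 23 higher and 74 lower, which is 54.5% of members, while among all 16281 genes tested 37.2% passed, 18.3% higher and 18.9% lower. In CD36 KO cells 93 passed (52.2%), 18 higher and 75 lower, beside 27.7% of all genes, 11.8% higher and 15.9% lower. The median log2 change of the members was -0.64 in WT and -0.67 in CD36 KO, against -0.01 and -0.08 for all genes. Members were chosen by their highest group level and all genes only by the low-count filter, so these shares are not like for like. Without WT oxLDL replicate 1 the counts in WT were 24 higher and 85 lower, with 90 of the 97 called again in the same direction. In CD36 KO they were 22 higher and 98 lower, with all 93 called again. The shares of all genes called in that fit are not given here.

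**Figure D1:**
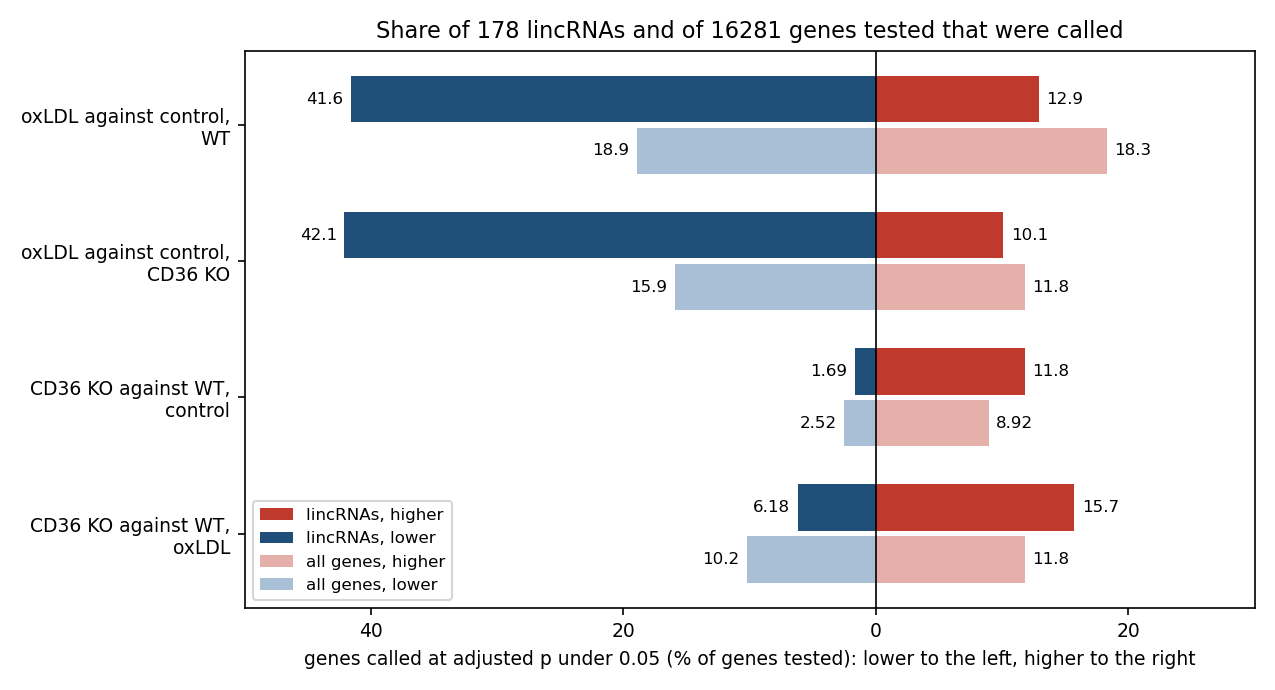
Share of genes that passed an adjusted p of 0.05 in each comparison, as a percentage of the genes tested, with lower to the left of 0 and higher to the right. Dark bars are the 178 lincRNAs and pale bars all 16281 genes. Under oxLDL the dark bar to the left reaches 41.6% in WT and 42.1% in CD36 KO, against 18.9% and 15.9% for all genes.

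Divisions of the members are given as counts, with no test. Among the 81 that met the minimum in all 4 groups, 15 rose and 23 fell in WT (median log2 change -0.33) and 10 rose and 22 fell in CD36 KO (-0.35). Most of the falls lay among the 97 that met it in only 1 to 3 groups. Of these, 8 rose and 51 fell in WT (-0.98), and 8 rose and 53 fell in CD36 KO (-0.87). The 107 that M21 types as lincRNA and that share no exon with a coding gene held 11 that rose and 47 that fell in WT, and 8 and 50 in CD36 KO. The 32 that share an exon with a coding gene held 7 and 12 in WT, and 6 and 13 in CD36 KO. Division by length at 2 kb gave 11 and 33 among the 75 shorter members and 12 and 41 among the 103 longer ones in WT.

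Both genotypes responded alike in direction. Of the members, 64 fell in both, 17 rose in both, 10 fell and 6 rose by the test in WT alone, 11 fell and 1 rose in CD36 KO alone, 69 passed in neither, and 0 passed in opposite directions. Joint calls were not counted over all genes. The sign of the change was the same in both genotypes for 162 of 178 members and for 13293 of all 16281 genes. The log2 changes of the 2 genotypes, which share no library but come from one fit, correlated at r = 0.93 over the 178 members and 0.89 over all genes tested, as a description.

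**Figure D2:**
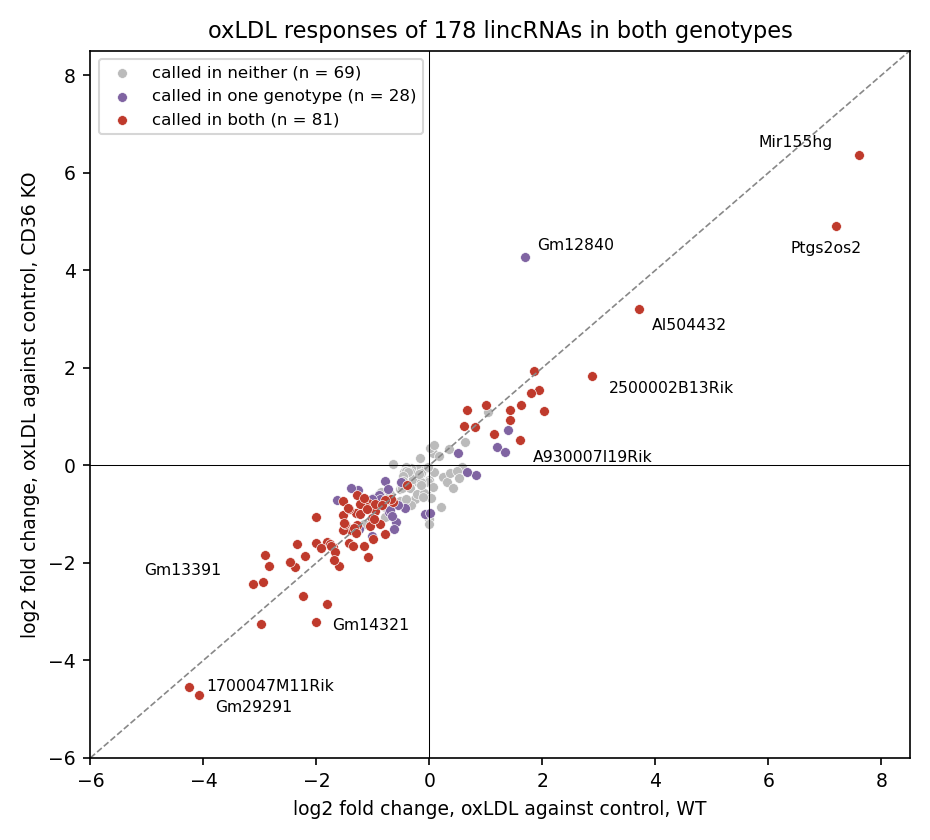
Log2 fold change of each of the 178 lincRNAs with oxLDL in WT (x axis) against CD36 KO (y axis), with the dashed line at equal change. Red points (81) passed in both genotypes, purple points (28) in 1 and grey points (69) in neither. Mir155hg (7.60 and 6.36) and Ptgs2os2 (7.20 and 4.91) lie far to the upper right, and 1700047M11Rik and Gm29291 to the lower left.

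Mir155hg and Ptgs2os2 had the largest rises in both genotypes. Mir155hg (Gm26667 in the table), the precursor of miR-155, held 0.106, 0.0695 and 0.0986 TMM-scaled CPM in WT control and 19.8, 20.2 and 14.9 with oxLDL. In CD36 KO it held 0.352, 0.192 and 0.302 in control and 26.2, 22.4 and 21.6 with oxLDL. The gene went from a handful of reads to a clear signal in every oxLDL library. Its log2 change was 7.60 ± 0.26 in WT (adjusted p = 4.23e-09) and 6.36 ± 0.23 in CD36 KO (adjusted p = 1.07e-08). Summed counts rose from 12 to 2265 in WT, a scaled ratio of 202 with a 95% counting interval of 115 to 392. Intervals of this kind cover counting error only. The CD36 KO control libraries were all above the WT control libraries, with 36 against 12 counts (log2 difference 1.59 ± 0.34, adjusted p = 0.0105; ratio 3.08, interval 1.57 to 6.51). Under oxLDL the genotypes differed by 0.35 (adjusted p = 0.153), and without WT oxLDL replicate 1 by 0.40, which passed (adjusted p = 0.0452). These counts are of the host RNA and do not measure the mature miRNA.

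Ptgs2os2, at chr1:150159043-150164948, is the lincRNA-Cox2 gene that regulates inflammatory genes in mouse macrophages. It held 0.127, 0.0232 and 0.0246 CPM in WT control, 8.46, 8.34 and 11.3 with oxLDL in WT, 0.258, 0.168 and 0.233 in CD36 KO control and 5.44, 6.21 and 8.51 with oxLDL in CD36 KO. OxLDL libraries were far above control libraries in both genotypes, by 7.20 ± 0.41 (log2) in WT (adjusted p = 1.10e-07) and 4.91 ± 0.34 in CD36 KO (adjusted p = 8.58e-07). The counts behind the control levels were few: 8 against 1129 with oxLDL in WT (ratio 151, interval 76.4 to 351) and 28 against 847 in CD36 KO (ratio 30.1, interval 20.7 to 45.6). Ptgs2, the inducible cyclooxygenase gene 50.8 kb away, rose by 7.005 in WT (adjusted p = 3.31e-06) and 7.25 in CD36 KO (adjusted p = 3.83e-06).

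AI504432, a lincRNA 1.43 kb from the potassium channel gene Kcna3, held 2.21, 1.92 and 1.87 CPM in WT control and 10.0, 31.7 and 36.9 with oxLDL. In CD36 KO it held 2.91, 2.76 and 2.86 in control and 26.2, 28.9 and 23.3 with oxLDL. WT oxLDL replicate 1 was the low library of its group but still above every control library. The log2 change was 3.71 ± 0.39 in WT (adjusted p = 1.61e-05) and 3.20 ± 0.38 in CD36 KO (adjusted p = 5.95e-05), and without that replicate it was 4.11 in WT (adjusted p = 6.53e-11). Kcna3, which helps set the membrane potential of leukocytes, was low and rose by 3.601 in WT (adjusted p = 0.00918) and 2.63 in CD36 KO (adjusted p = 0.0388).

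Further members that rose lay beside a coding gene, overlapped one or lay far from any. 2500002B13Rik starts 0.194 kb head to head from Sap30, a subunit of the Sin3 histone deacetylase complex. It rose from 1.79 ± 0.0962 to 13.2 ± 4.69 CPM in WT (log2 change 2.88 ± 0.24, adjusted p = 2.41e-06) and from 1.98 ± 0.329 to 7.03 ± 0.702 in CD36 KO (1.83 ± 0.23, adjusted p = 0.000111). Bvht (Gm20748 in the table, Braveheart, known from cardiac commitment of mouse stem cells) rose by 1.93 in WT and 1.54 in CD36 KO. The intergenic 1110002J07Rik rose by 1.86 ± 0.15 and 1.93 ± 0.15, its libraries lying within 4.91 to 5.91 CPM in WT oxLDL and 1.42 to 1.53 in WT control. 9530082P21Rik rose by 2.02 and 1.11, and Gm10425, which overlaps the exocyst-like gene Exoc3l4 (2.71 and 1.77), by 1.804 and 1.48.

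Gm12840 was the member that rose by the test in CD36 KO alone. Its CD36 KO oxLDL libraries held 3.03, 0.270 and 2.30 CPM, while CD36 KO control held 0.0235, 0.192 and 0.0698 and WT oxLDL 0.0671, 0.285 and 0.138. Replicate 2 of the CD36 KO oxLDL group was at the level of WT oxLDL, and the change of 4.28 ± 0.86 (adjusted p = 0.00288) ran from 3.73 to 5.25 over the alternatives. The difference between the responses did not pass (interaction adjusted p = 0.688).

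**Figure D3:**
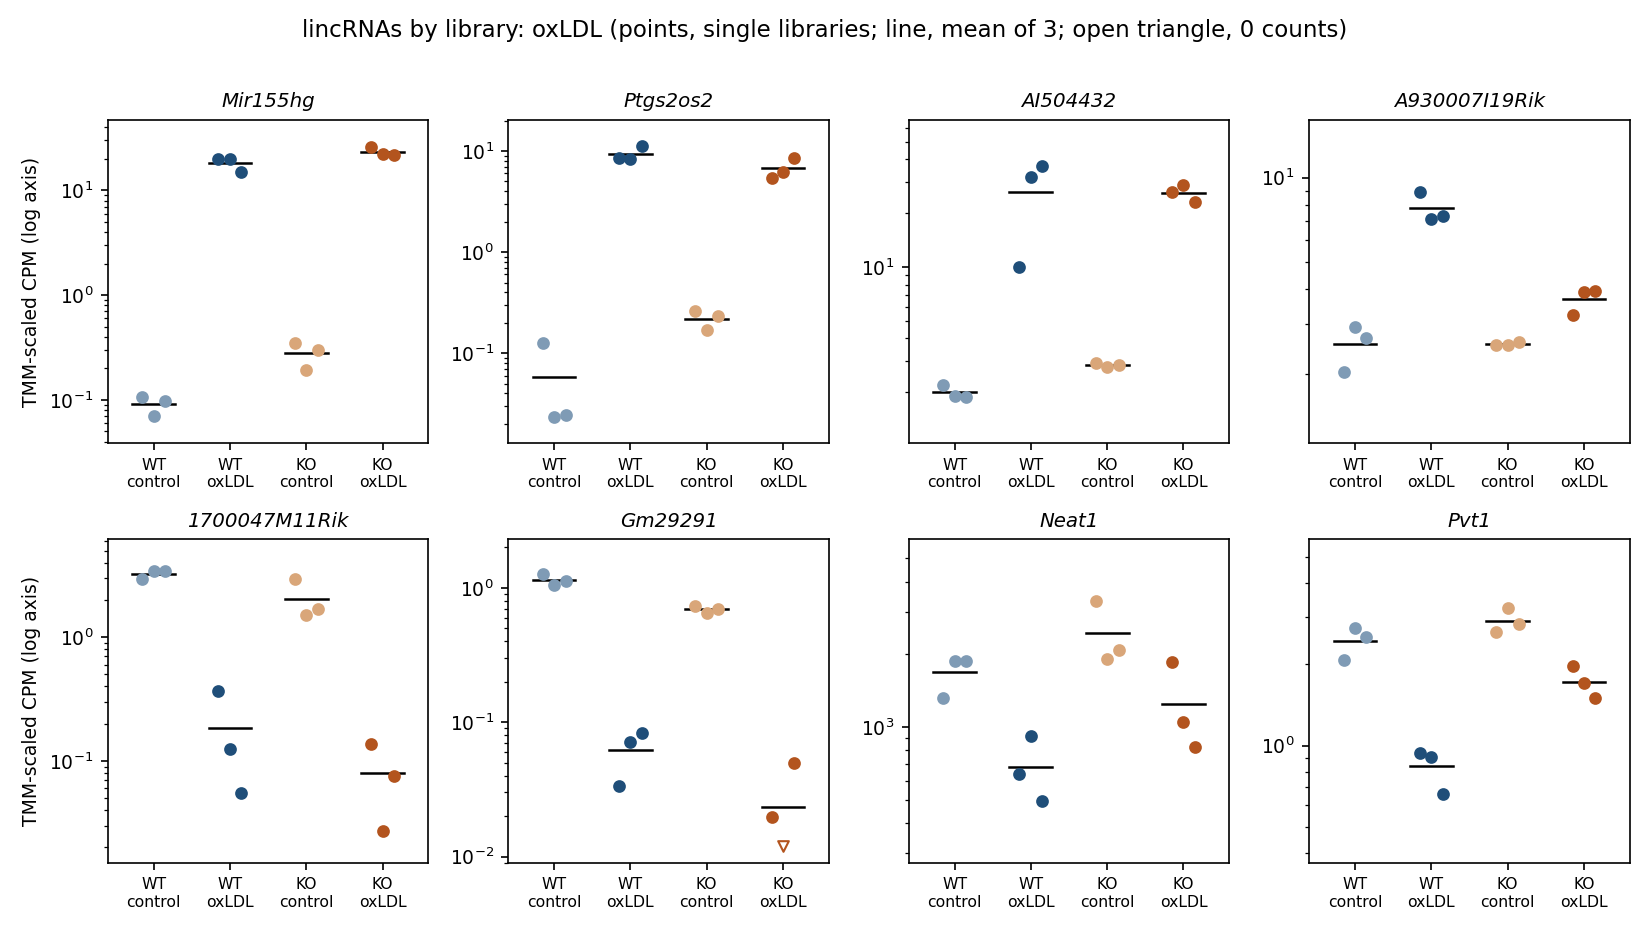
TMM-scaled CPM (log axis) of 8 lincRNAs in each library of the 4 groups, with lines at group means of 3 and open triangles for 0 counts. The upper row rose with oxLDL and the lower row fell in both genotypes. AI504432 shows WT oxLDL replicate 1 at 10.0 CPM against 31.7 and 36.9 in the other libraries of its group.

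The members that fell furthest were poorly described intergenic genes of chromosome 1. 1700047M11Rik, at chr1:182287990-182303325 near the sphingolipid desaturase gene Degs1, held 2.95, 3.40 and 3.43 CPM in WT control and 0.369, 0.124 and 0.0553 with oxLDL. In CD36 KO it held 2.96, 1.51 and 1.67 in control and 0.138, 0.0270 and 0.0749 with oxLDL. No oxLDL library reached a control library, and the log2 change was -4.25 ± 0.49 in WT (adjusted p = 3.52e-05) and -4.55 ± 0.54 in CD36 KO (adjusted p = 6.02e-05). Counts went from 425 to 20 in WT and from 261 to 11 in CD36 KO, scaled ratios of 19.8 (interval 12.7 to 32.8) and 23.8 (13.1 to 48.3).

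Gm29291 fell from 1.15 ± 0.116 to 0.0625 ± 0.0258 CPM in WT (log2 change -4.08 ± 0.37, adjusted p = 4.84e-06). In CD36 KO it fell from 0.691 ± 0.0407 to 0.0232 ± 0.0251 (-4.72 ± 0.45, adjusted p = 1.09e-05), with 3 counts left over 3 libraries against 88 (ratio 29.5, interval 9.76 to 146). Gm13391 fell from 5.21 ± 0.580 to 0.602 ± 0.217 CPM in WT (-3.13) and from 6.22 ± 1.88 to 1.14 ± 0.342 in CD36 KO (-2.43). C030034L19Rik overlaps the zinc finger gene Zfp704, which fell with it (-1.96 and -1.26). It fell by 2.98 and 3.25 log2 units in WT and CD36 KO. Gm26512 overlaps Dio2, the gene of an enzyme that activates thyroid hormone, and fell by 2.83 and 2.06, beside -1.94 and -1.63 for Dio2.

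Among members with a described role, those that fell included nuclear, growth and cardiac lincRNAs. Neat1 held 1324, 1872 and 1868 CPM in WT control, 640, 916 and 493 with oxLDL in WT, 3326, 1912 and 2085 in CD36 KO control and 1857, 1049 and 828 with oxLDL in CD36 KO. Control and oxLDL libraries did not overlap within a genotype, and the log2 change was -1.31 ± 0.33 in WT (adjusted p = 0.00917) and -0.97 ± 0.33 in CD36 KO (adjusted p = 0.0466). With the gene length trend removed neither change passed. Over 18 alternatives the change in CD36 KO ran from -1.38 to -0.68 and lost its call in 9, among them each CD36 KO control library left out in turn (adjusted p up to 0.250). Malat1, the abundant RNA of nuclear speckles, changed by -0.51 in WT (adjusted p = 0.344) and -0.37 in CD36 KO (adjusted p = 0.550). Its 49.5 CPM in WT oxLDL replicate 1 stood against 186 and 223 in the other libraries of the group, and without that replicate the change in WT was -0.07 (adjusted p = 0.769).

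Pvt1, the noncoding neighbour of the growth regulator Myc, held 2.08, 2.71 and 2.51 CPM in WT control and 0.940, 0.907 and 0.663 with oxLDL. In CD36 KO it held 2.63, 3.21 and 2.81 in control and 1.97, 1.70 and 1.497 with oxLDL. Its fall was -1.53 ± 0.20 in WT (adjusted p = 9.28e-05) and -0.74 ± 0.19 in CD36 KO (adjusted p = 0.0115). Under oxLDL the CD36 KO libraries were all above the WT libraries, by 1.04 ± 0.20 (adjusted p = 0.00405), while the interaction had an adjusted p of 0.268. The call in CD36 KO was lost with the gene length trend removed (adjusted p = 0.0889). Myc, 47.6 kb away, fell by 1.23 (log2) in WT (adjusted p = 0.000548) and changed by -0.42 in CD36 KO (adjusted p = 0.149). Under oxLDL it too was higher in CD36 KO, by 1.04 (adjusted p = 0.00405).

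Mirt1 (5830416P10Rik in the table), a transcript named from mouse myocardial infarction, held 0.997, 1.18 and 1.48 CPM in WT control and 0.168, 0.160 and 0.138 with oxLDL. In CD36 KO it held 3.62, 2.40 and 2.58 in control and 0.670, 0.432 and 0.499 with oxLDL. It fell in both genotypes (-2.95 ± 0.30, adjusted p = 1.34e-05, and -2.40 ± 0.25, adjusted p = 1.99e-05) and was higher in CD36 KO in both media. The genotype differences were 1.23 ± 0.23 in control (adjusted p = 0.00515) and 1.78 ± 0.32 under oxLDL (adjusted p = 0.00282), without overlap of libraries. The 1700020I14Rik RNA, at 111 to 117 CPM in WT control and 36.3 to 71.6 in WT oxLDL, fell by 0.94 and 0.82 on the log2 scale, the latter with an adjusted p of 0.0649 without CD36 KO oxLDL replicate 3.

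The 15 miRNA hosts moved in both directions. In WT 2 passed as higher and 6 as lower, and in CD36 KO 2 as higher and 7 as lower. Of all genes, 18.3% were higher and 18.9% lower in WT, and 11.8% and 15.9% in CD36 KO. Besides Mir155hg, the host of miR-191 and miR-425 rose, by 1.42 ± 0.25 in WT (adjusted p = 0.00102) and 1.14 ± 0.25 in CD36 KO (adjusted p = 0.00526). It lies 99 bases from the coding gene Ndufaf3. The hosts of miR-181b-1 (A430106G13Rik, -2.90 and -1.84), miR-101a (E130102H24Rik, -1.004 and -1.51), miR-1839 (2900076A07Rik, -0.88 and -1.21), miR-675 (H19, -1.01 and -1.09) and miR-770 (Meg3, -1.40 and -1.33) fell in WT and in CD36 KO. So did Mirg, whose locus holds 26 of the mature miRNAs (-1.31 and -1.39). Its call in WT was lost in 11 of 17 alternatives (adjusted p up to 0.149), and those of Meg3 were lost with the gene length trend removed, in CD36 KO also without oxLDL replicate 2 or 3 (adjusted p up to 0.0770).

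6720427I07Rik, the host of the 3 let-7 miRNAs with the seed GAGGUAG, passed in CD36 KO alone. There it went from 5.99, 4.39 and 4.74 CPM to 2.92, 2.30 and 1.47 (-1.17 ± 0.28, adjusted p = 0.00787), and in WT it changed by -0.60 (adjusted p = 0.118). The interaction adjusted p was 0.707. Mir142hg, host of a miRNA typical of blood cells, Mir17hg, host of the miR-17 to miR-92a cluster, and the miR-29b-2 and miR-29c host A330023F24Rik passed in neither genotype. Mir142hg held 15.7, 5.25 and 3.29 CPM in WT oxLDL, and without replicate 1 of that group its change in WT passed, at -0.89 (adjusted p = 0.0273).

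Without oxLDL, members were more often higher than lower in CD36 KO. Against WT control, 24 of 178 passed, 21 higher and 3 lower, beside 11.4% of all genes tested, 8.92% higher and 2.52% lower. Under oxLDL 39 passed, 28 higher and 11 lower, beside 22% of all genes, 11.8% higher and 10.2% lower. The members' own shares, 13.5% in control (11.8% higher, 1.69% lower) and 21.9% under oxLDL (15.7% higher, 6.18% lower), lay near those of all genes. The median log2 difference of the members was 0.26 in control and 0.17 under oxLDL, against 0.01 and -0.03 for all genes.

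The count in control medium moved with the libraries in the fit. Without WT oxLDL replicate 1 it was 46 higher and 18 lower, and with the gene length trend removed 23 higher and 8 lower. With that trend removed, 9.6% of all genes were higher and 6.56% lower. Leaving out WT control replicate 2 or replicate 3 gave 14 and 13 members. Under oxLDL it was 34 higher and 12 lower without WT oxLDL replicate 1, and 24 members passed without CD36 KO oxLDL replicate 1 or without replicate 2. Scaling by upper quartiles gave 37 higher and 5 lower under oxLDL, beside 14.9% of all genes higher and 6.19% lower. There the median over all genes moved by 0.12, and by -0.12 for oxLDL in WT. The shares of all genes in the fits with a library left out are not given here.

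The 2 genotype comparisons share no library. In both media 17 members passed as higher and 2 as lower, while 4 were higher in control alone, 11 higher under oxLDL alone, 1 lower in control alone and 9 lower under oxLDL alone. The same joint count was not made over all genes, so these numbers describe the members and not a trait particular to them.

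C030014I23Rik differed most between the genotypes. It lies at chr9:44468344-44482180 on the plus strand, 0.645 kb from Bcl9l, a coactivator gene of Wnt signalling. WT control libraries held 0.127, 0.255 and 0.0493 CPM, WT oxLDL 0.235, 0 and 0, CD36 KO control 8.90, 7.05 and 7.65, and CD36 KO oxLDL 3.29, 2.86 and 3.34. The gene was thus near 0 in WT and clearly present in every CD36 KO library. The log2 difference was 5.73 ± 0.59 in control (adjusted p = 0.000229) and 5.66 ± 0.69 under oxLDL (adjusted p = 0.000351). In counts, 19 stood against 1002 in control (ratio 54.2, interval 34.5 to 90.4) and 7 against 407 under oxLDL (55.6, interval 26.7 to 139). All 7 counts of WT oxLDL came from replicate 1. Without it WT oxLDL had 0 counts, the fitted value of 10.1 depended on the prior count, and the CD36 KO mean was at least 97.6-fold higher than a floor of 3 counts over the WT libraries left. Bcl9l was itself higher in CD36 KO, by 0.92 in control (adjusted p = 0.0213) and 0.71 under oxLDL (adjusted p = 0.0436).

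Other poorly described members higher in CD36 KO were Gm26862 and Gm16092. Gm26862, within whose span the coding gene Fam181b lies, held 0.361, 0.255 and 0.394 CPM in WT control and 2.23, 2.37 and 2.74 in CD36 KO control (2.85 ± 0.32, adjusted p = 0.000325). Under oxLDL it held 0.403, 0.249 and 0.304 in WT and 0.965, 1.54 and 2.17 in CD36 KO (2.31 ± 0.33, adjusted p = 0.000827). Gm16092 averaged 0.198 ± 0.0219 and 1.45 ± 0.161 CPM in WT and CD36 KO control (2.85 ± 0.26, adjusted p = 0.000121) and 0.261 ± 0.0843 and 1.04 ± 0.149 under oxLDL (1.95 ± 0.25, adjusted p = 0.000527). Neither gene's WT libraries overlapped the CD36 KO libraries in either medium.

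Meg3, Mirg and H19, imprinted lincRNAs expressed from the maternal chromosome, were each higher in CD36 KO and fell with oxLDL. Meg3 held 4.69, 3.82 and 2.81 CPM in WT control, 1.68, 1.87 and 0.718 with oxLDL in WT, 13.9, 16.5 and 11.4 in CD36 KO control and 7.94, 4.94 and 3.74 with oxLDL in CD36 KO. Its genotype difference was 1.88 ± 0.35 in control (adjusted p = 0.00474) and 1.95 ± 0.37 under oxLDL (adjusted p = 0.00339). Mirg, from the same imprinted locus on chromosome 12, differed by 2.38 ± 0.32 (adjusted p = 0.00101) and 2.30 ± 0.42 (adjusted p = 0.00292), at a mean of only 0.168 ± 0.0188 CPM in WT control.

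H19, the imprinted neighbour of Igf2 on chromosome 7, held 5.81, 5.67 and 5.03 CPM in WT control, 3.12, 2.65 and 2.43 with oxLDL in WT, 10.1, 10.5 and 10.2 in CD36 KO control and 4.39, 5.16 and 4.94 with oxLDL in CD36 KO. No groups overlapped except WT control and CD36 KO oxLDL. The difference was 0.90 ± 0.13 in control (adjusted p = 0.00169) and 0.82 ± 0.14 under oxLDL (adjusted p = 0.00189). The summed level of the 10 mesothelial and fibroblast markers was also higher in CD36 KO, at 2525 against 1002 CPM in control and 2111 against 846 under oxLDL, and 4 and 5 of them passed. With oxLDL 5 of them fell in WT and 2 in CD36 KO. The B cell sum was 191 against 60.4 CPM under oxLDL, and 9 and 8 of its 10 markers passed. Their part in these differences was not tested. In bulk samples, more cells of a type and more RNA per cell cannot be told apart.

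**Figure D4:**
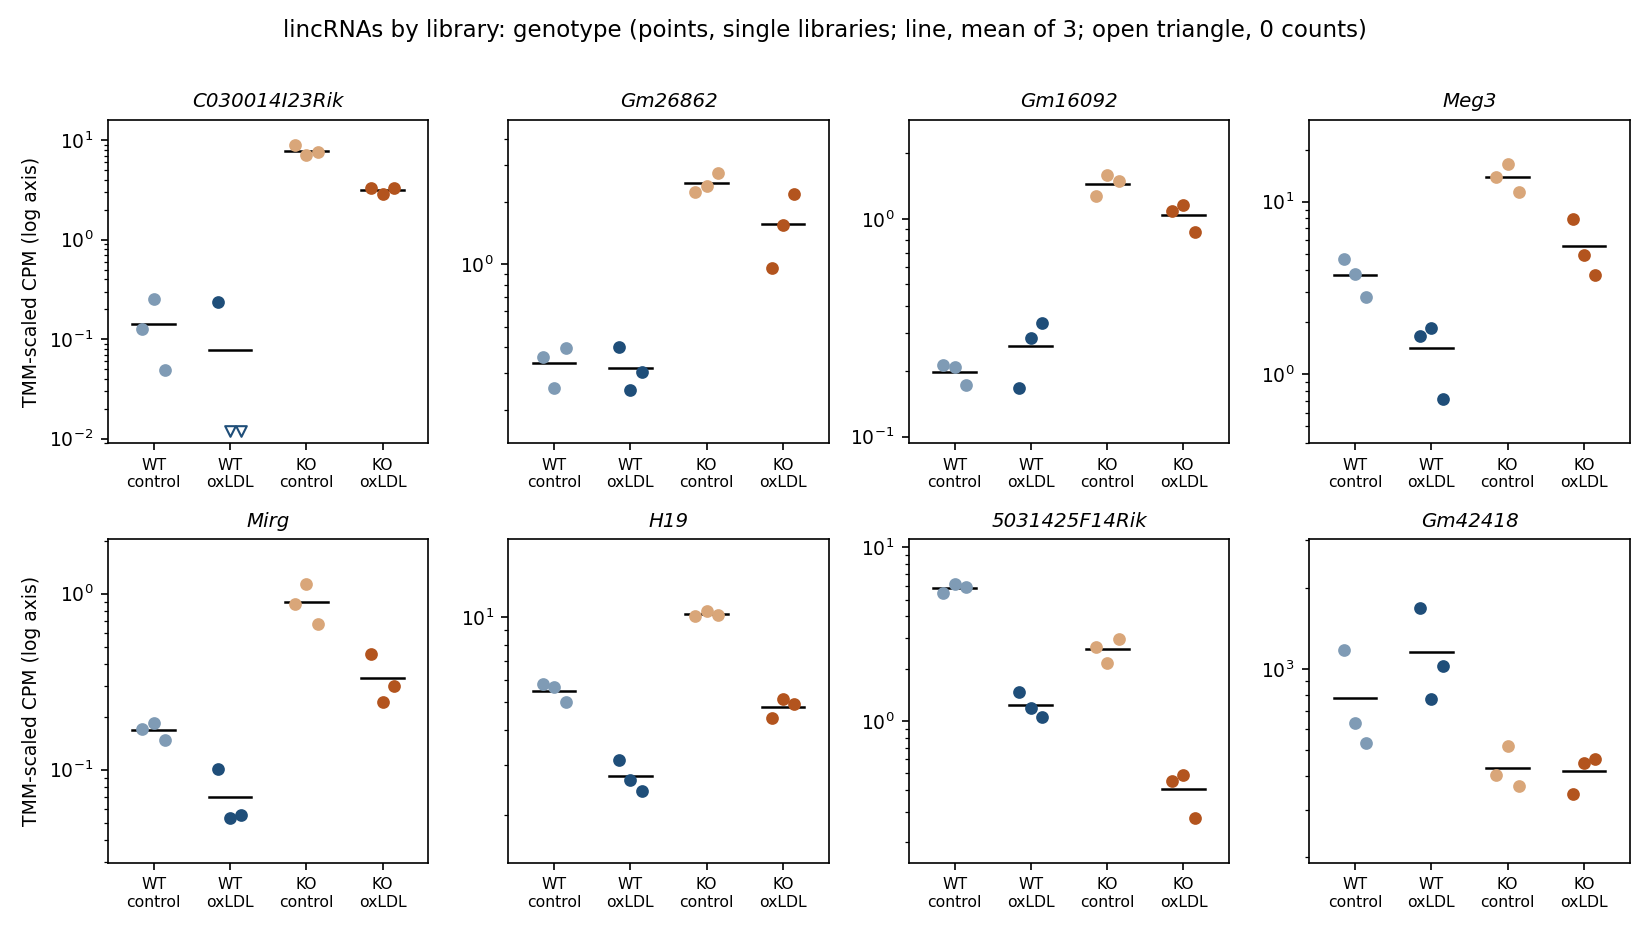
TMM-scaled CPM (log axis) of 8 lincRNAs in each library of the 4 groups, with lines at group means of 3 and open triangles for 0 counts. C030014I23Rik is near 0 in WT and at 2.86 to 8.90 in CD36 KO, Meg3, Mirg and H19 are higher in CD36 KO in both media, and 5031425F14Rik is lower.

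The clearest loss in CD36 KO was that of 5031425F14Rik, an intergenic RNA at chr2:166447451-166459232. It held 5.45, 6.16 and 5.92 CPM in WT control, 1.48, 1.19 and 1.05 with oxLDL in WT, 2.68, 2.16 and 2.98 in CD36 KO control and 0.453, 0.486 and 0.275 with oxLDL in CD36 KO. The 4 groups did not overlap. It was lower in CD36 KO by -1.16 ± 0.20 in control (adjusted p = 0.00322) and -1.60 ± 0.24 under oxLDL (adjusted p = 0.00110), and it fell with oxLDL by 2.24 and 2.67 on the log2 scale. Gm12708 was lower in CD36 KO in both media (-0.91, adjusted p = 0.0256, and -1.16, adjusted p = 0.0288), though each call was lost in 5 alternatives (adjusted p up to 0.126). 4930556M19Rik passed in control alone (-1.01, adjusted p = 0.0104; 0.0509 without WT control replicate 2).

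Cd36 lies on chromosome 5 at chr5:17781690-17888801, and 13 members lie on that chromosome. Of these, 3 passed in control, where 11.4% of all genes did, and 4 under oxLDL, where 22% did. The nearest to pass were 6030443J06Rik, 4.66 Mb away (1.94 in control, adjusted p = 0.0305), and 2700038G22Rik, 5.96 Mb away (1.82, adjusted p = 0.00142). The first lost its call without any 1 of the 6 control libraries (adjusted p up to 0.128).

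No member passed the test of whether the oxLDL response differed between the genotypes, the interaction in edgeR's quasi-likelihood test, where 0.694% of all genes did. At an unadjusted p under 0.05 there were 18 of 178 members, beside 1707 of all 16281 genes. DESeq2 called 2 of 166 members (1.2%), beside 3.75% of all genes. The lowest adjusted p among members in edgeR, 0.0745, was that of A930007I19Rik. This member overlaps Pdcd1lg2, the gene of the immune checkpoint ligand PD-L2, and the pair may share reads. It held 2.04, 2.94 and 2.69 CPM in WT control, 8.93, 7.11 and 7.32 with oxLDL in WT, 2.54, 2.54 and 2.60 in CD36 KO control and 3.23, 3.92 and 3.94 with oxLDL in CD36 KO. Every WT oxLDL library was above every CD36 KO oxLDL library, while the control libraries of the genotypes overlapped. The response was 1.61 ± 0.17 in WT (adjusted p = 1.76e-05) and 0.53 ± 0.17 in CD36 KO (adjusted p = 0.0382), and the difference between the responses was -1.08 ± 0.24. The call in CD36 KO was lost in 9 of 18 alternatives, over which its change ran from 0.48 to 0.66 (adjusted p up to 0.112). Pdcd1lg2 rose by 2.90 in WT and 1.51 in CD36 KO.

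DESeq2 called A930007I19Rik (-1.05, adjusted p = 0.00627) and Ptgs2os2 (-2.30, adjusted p = 0.0248) in the interaction. Without WT oxLDL replicate 1, edgeR called 5 members, all with a smaller rise in CD36 KO. The share of all genes called in that fit is not given here. They were AI504432 (-0.91, adjusted p = 0.00615), A930007I19Rik (-0.99, adjusted p = 0.0160), 2500002B13Rik (-0.74, adjusted p = 0.0441), Gm16675 (-0.92, adjusted p = 0.0486) and Ptgs2os2 (-2.36, adjusted p = 0.0491). Gm16675 starts 217 bases head to head from Irf2, an interferon regulatory factor gene, and had risen by 1.39 in WT (adjusted p = 0.00114) and 0.71 in CD36 KO (adjusted p = 0.0555). A230028O05Rik rose by 0.66 in WT (adjusted p = 0.00590) and changed by -0.14 in CD36 KO (adjusted p = 0.565), with an interaction adjusted p of 0.159.

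Members were next set beside their nearest protein-coding gene within 100 kb, as a description. Of 94 pairs with separate gene bodies in which both genes were tested, 29 had both genes called with oxLDL in WT, 23 in the same direction and 6 in opposite directions. In CD36 KO there were 16, 13 the same and 3 opposite. The log2 changes of such pairs correlated at r = 0.52 in WT and 0.43 in CD36 KO. Where the gene bodies overlapped (38 pairs), all 13 pairs called in WT and all 14 in CD36 KO had the same direction, with r = 0.89 and 0.79, and reads of such pairs may be shared.

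Some pairs moved together. Gm13431, 7.49 kb from Ptgs1, the constitutive cyclooxygenase gene, fell by 1.82 and 2.85 log2 units in WT and CD36 KO, and Ptgs1 fell by 2.10 and 2.05. Others moved apart. Gm14321, 87.0 kb from Cebpb, fell from 0.879 ± 0.157 to 0.220 ± 0.113 CPM in WT (-2.01, adjusted p = 0.00166) and from 1.59 ± 0.238 to 0.164 ± 0.0906 in CD36 KO (-3.21, adjusted p = 6.48e-05). Cebpb, a transcription factor gene of myeloid cells, rose by 2.22 and 1.74. The miR-101a host E130102H24Rik fell while Ak4, the gene of a mitochondrial adenylate kinase 62.5 kb away, rose by 3.24 and 3.03. Neat1 fell in WT while its neighbour Frmd8, 4.22 kb away, rose by 0.78 (adjusted p = 0.00115).

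**Figure D5:**
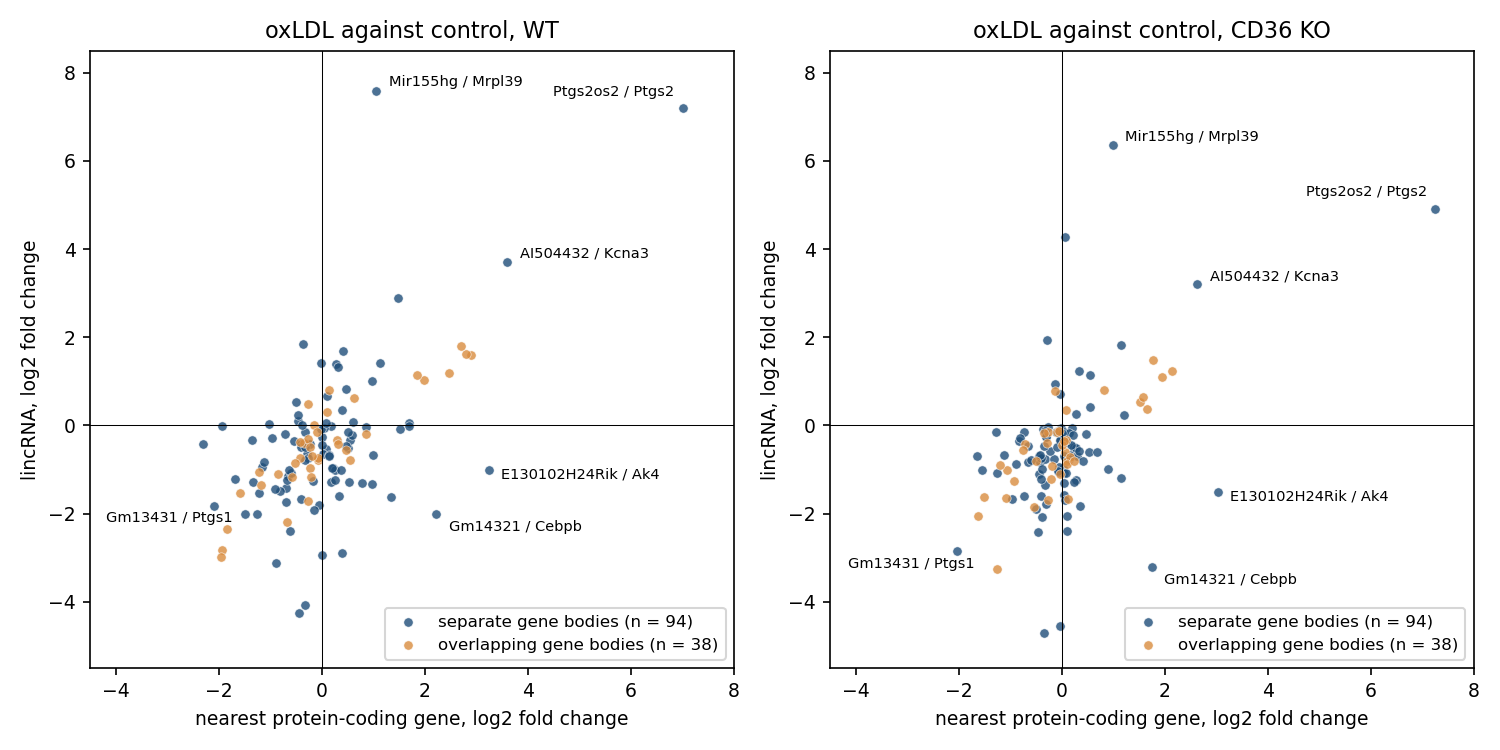
Log2 fold change of the nearest protein-coding gene within 100 kb (x axis) against that of the lincRNA (y axis) with oxLDL, in WT (left) and CD36 KO (right). Blue points are 94 pairs with separate gene bodies and orange points 38 pairs whose bodies overlap. Ptgs2os2 with Ptgs2 and AI504432 with Kcna3 lie at the upper right, and Gm14321 with Cebpb and E130102H24Rik with Ak4 at the lower right.

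RefSeq held a promoter for 96 of the 178 members. Each motif was searched on both strands in the 300 bases of each promoter and set beside the share of all 27025 promoters of the table. The NF-kB letters, GGGA and TCC parted by any 3 bases, were in 3 of 15 promoters of members that rose in WT (20.0%), in 2 of 39 that fell (5.13%) and in 0 of 42 that did not pass, against 4.55% of all promoters. The interferon-stimulated response element, GAAA and GAAA parted by any 2 bases, was in 2 of 15, 2 of 39 and 0 of 42, against 3.49%. For AP-1, TGANTCA, the counts were 1, 2 and 3, against 7.93%, and for the antioxidant response element, TGACNNNGC, 2, 5 and 6, against 12.5%. These last motifs can overlap, as they did in 115 promoters of the table. The TATA box letters TATAAA were in 0, 6 and 5, against 14.2%. Some RefSeq starts lay far from the member's M21 start, so the window may not be its promoter. Both interferon element matches among members that fell were such, in Gm38399 (102750 bases off) and 1600010M07Rik (144556). So was 1 NF-kB match among those that fell, in Gm13710 (24449), while A930007I19Rik, with an NF-kB match among those that rose, was 1172 off. Among members that rose without a match, Mir155hg (9856), 9530082P21Rik (6002) and Gm19705 (12627) were also far off. With so few promoters a single match moves these shares by several points, and a match is not a binding site.

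Of the lists of described lncRNAs, 7 snoRNA hosts were members (of 19 listed), among them Snhg1, Snhg6, Snhg12 and Snhg20, whose introns release small nucleolar RNAs. With oxLDL 1 fell in WT, Snora43 (Snhg7 in the table), by 0.82 log2 units, a call lost in 5 of 18 alternatives (adjusted p up to 0.0991), and 0 passed in CD36 KO. Under oxLDL 2 were higher in CD36 KO than in WT, Snhg12 by 0.73 (adjusted p = 0.0316) and Snora43 by 0.94 (adjusted p = 0.0301). Of 5 nuclear architecture lincRNAs (of 17 listed) Neat1, Meg3 and Mirg fell in both genotypes, and Malat1 and Ftx did not pass. The 5 members of the immune list (of 22) held 2 that rose, Mir155hg and Ptgs2os2, and 2 that fell, Neat1 and F730311O21Rik, in both genotypes. Of 5 miRNA hosts (of 16 listed) 1 rose and 2 fell in each genotype, and of 4 growth and stability lincRNAs (of 20 listed) Meg3 and Pvt1 fell in both. The lists overlap, and the numbers passing among all genes are those given above.

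The authors' deposited tables give their own false discovery rates. In the authors' deposited table for oxLDL in WT, 3515 of the 12764 genes listed and 68 of the 133 members listed passed a rate of 0.05, the members 17 higher and 51 lower, and all 68 were among the calls made here, in the same direction. For oxLDL in CD36 KO the authors' deposited table held 6196 of 13396 genes and 101 of 153 members, 20 higher and 81 lower, with 83 called here. For CD36 KO against WT in control the authors' deposited table held 5494 of 13207 genes and 72 of 152 members, 56 higher and 16 lower, with 19 called here. Under oxLDL the authors' deposited table held 1517 of 12793 genes and 14 of 103 members, 11 higher and 3 lower, all called here.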

How the data were processed

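RNA-seq was deposited for 12 libraries of cultured peritoneal macrophages (3 in each of 4 groups, placed by their titles). The authors deposited whole-number counts per gene and RPKM values made from them, per the file headers. Their result tables hold log2 fold changes and p-values adjusted as false discovery rates, also per the file headers. Genome build mm10 and FastQC come from the submitters' processing notes. For the aligner, counting program, annotation, use of strand and statistical software, the answer is not given in the sources used here.

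Every test started from the counts, and RPKM served only to compare levels between genes. Low genes were removed with filterByExpr (minimum count 10, minimum total 15), leaving 16281 genes. Libraries were scaled by TMM, and all 12 libraries, with 1 mean for each group, entered a single quasi-likelihood model in edgeR 4.0.16 (R 4.3.3). P-values were adjusted by the Benjamini-Hochberg method over all genes tested, and called means an adjusted p under 0.05. Adjusted p-values come from edgeR except where DESeq2 (1.42.0) is named. SE is the absolute log2 fold change over the square root of F. Fold changes kept edgeR's default prior count. A prior count of 2 entered only the log CPM used to correlate libraries and to remove the gene length trend. Intervals of count ratios are exact at 95% and cover counting error only. Summed counts of 35257762 to 65135955 per library put the low members near the limit of precision.

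Positions, exons and nearest coding genes came from GENCODE M21 (GRCm38), in place of the coordinates in the count table that the neighbour rule had named, and 165 members matched by identifier. Names are those of M21, with the table's name where it differs. Promoters and miRNAs are RefSeq's. Named members were the 10 with the highest CPM, the 8 with the largest changes in each direction of each comparison, those in the lncRNA lists and those called in the interaction, and others named were chosen after their values were seen. Members and lists were chosen with earlier results of these data known. The alternatives were DESeq2, upper-quartile factors, no low-count filter, only the groups compared, a replicate block and removal of the gene length trend. Other minimum levels, a 10 kb neighbour limit and each library left out were also run.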

Additional observations from a re-analysis of the deposited data

How the results depend on the processing

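The counts of members called kept their direction of more lower than higher with oxLDL, and more higher than lower in CD36 KO, under every alternative run. With only the groups compared in the fit, 73 members passed in CD36 KO against WT in control and 16 under oxLDL. These were 41.7% and 9.3% of the members tested, near the 43.1% and 8.25% of all genes in the same fits. A minimum mean of 1 CPM over all libraries left 15 in control. A minimum of 5 CPM in a group, which keeps 57 members, left 32 for oxLDL in WT, 31 in CD36 KO, 7 for genotype in control and 15 under oxLDL. Restricting to the 107 M21 lincRNAs with no coding exon shared, chosen after seeing the data, left 58, 58 and 25 for oxLDL in WT, oxLDL in CD36 KO and genotype under oxLDL, since fewer members remain. In the interaction DESeq2 called 2, and a 10 kb limit left 8 neighbour pairs in the same direction in CD36 KO.

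Leaving out one library at a time gave 73 to 109 members for oxLDL in WT, 69 to 120 in CD36 KO, 13 to 64 for genotype in control, 24 to 48 under oxLDL and 0 to 5 in the interaction. The highest value in control and in the interaction came without WT oxLDL replicate 1. The cause of these shifts was not tested, and the shares of all genes called in those fits are not given here.

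Deviations of same-numbered libraries correlated at r -0.40 to 0.36, with 2 of 18 pairs over 0.1. For libraries of different number it was -0.57 to 0.54, with 7 of 36 over 0.1. These values showed no pairing by replicate number, but with 3 libraries a group they cannot exclude it. A replicate block gave 91, 86, 24, 37 and 0 members in the 5 comparisons. Of all genes it called 33.9%, 25.4%, 9.67%, 18.7% and 0.276%.

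Of 1654 alternative values for named genes, 1537 kept their call, 117 lost it and 0 changed direction. Depth limits the members below 1 CPM in a group, where a level rests on few counts, and mature miRNAs were not measured.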
